A study of Mus musculus with 36 samples.

Results

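The CC chemokine genes Ccl3, Ccl4 and Ccl9 were followed in mouse microglia and astrocytes in which the kinase RIPK1 was activated with or without its inhibitor. The 3 genes were selected on measured changes of these same data, because they changed with the stimuli and with Nec-1s, and were then taken by symbol from the annotation. All 3 had a row in both tables, among 15385 genes in microglia, 14551 in astrocytes and 16690 gene symbols in all. Ccl3 encodes MIP-1alpha, Ccl4 encodes MIP-1beta and Ccl9 encodes MIP-1gamma. These are small secreted proteins of macrophages and microglia that attract monocytes, T cells and other leukocytes. Ccr1 is a receptor of Ccl3 and of Ccl9. Ccl3 and Ccl4 are known as fast, NF-kappaB driven response genes of myeloid cells, while Ccl9 is made by resting macrophages as well.

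Both cell types came from C57BL/6 mixed glia of 2 to 4 day old pups, kept for 12 days in culture. Microglia were taken by CD11b selection and astrocytes by positive selection from the fraction left over. The cells rested for 24 to 48 h and were then treated for 4 h. T is TNF, 5z is the TAK1 inhibitor 5z-7, S is a Smac mimetic, Z is the pan-caspase inhibitor zVAD and N is Nec-1s, which blocks the RIPK1 kinase. In microglia T/5z is used to set off RIPK1-dependent apoptosis and T/S/Z necroptosis, and cell death was not measured in these libraries. DMSO was the vehicle. Microglia were given the vehicle, Nec-1s, or either stimulus without and with Nec-1s (written T/5z/N when added to T/5z and T/S/Z/N when added to T/S/Z), with 4 libraries of each. Astrocytes were given the vehicle, Nec-1s, T/S/Z and T/S/Z/N, with 3 libraries of each. No library received TNF, 5z, S or Z alone, so a difference from DMSO belongs to the whole mixture. The labels tie no library to an animal and say that brains were pooled. The study's general statement on replicates names single mice or cells from separate litters, without saying which applies to these libraries, and p-values measure the spread between them.

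Levels are log2(FPKM + 1), where FPKM counts fragments per kilobase of exon, scaled to the depth of the library, and can be compared between genes. The labels name different sequencing providers for the 2 cell types, while the study's methods name 1 for both, and each table had its own normalization. Cell type cannot be told apart from these differences, and no test was made across the tables. The 23 microglial markers summed to 18233 to 22689 FPKM in the microglial libraries, and the 12 astrocyte markers summed to 6.44 to 29.2 FPKM there. In the astrocyte libraries the 12 astrocyte markers summed to 3144 to 3729 FPKM and the 21 microglial markers with a row to 112 to 189 FPKM. Depth, estimated from the steps between low values, was 21.3 to 22.4 M reads or read pairs in astrocytes and 18.3 to 25.3 M in microglial replicate 4. It is unknown in microglial replicates 1 to 3, whose values the deposited table had shifted gene by gene.

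The 3 genes lay within 91765 bases of chromosome 11 (build GRCm38), in a cluster of CC chemokine genes. Ccl9 (ENSMUSG00000019122) lay at chr11:83572919-83578636 on the minus strand, Ccl3 (ENSMUSG00000000982) at chr11:83647844-83649355 on the minus strand and Ccl4 (ENSMUSG00000018930) at chr11:83662584-83664683 on the plus strand. Ccl3 and Ccl4 pointed away from each other across 13228 bases, and Ccl9 lay 69207 bases from Ccl3. Promoters are shown for Ccl3 and Ccl9 because the genes changed together but by different amounts. They run from 250 bases before to 50 bases after the RefSeq start and come from RefSeq (GRCm38.p6), which held entries for 2 of the 3 genes. Capitals mark matches, on either strand, to kappaB (GGGNNNTTCC), AP-1 (TGANTCA), the TATA box (TATAAA) or C/EBP (TTNNGNAA). The Ccl3 window is chr11:83649329-83649628 and the Ccl9 window is chr11:83578587-83578886, each read 5′ to 3′ on the minus strand.
Ccl3: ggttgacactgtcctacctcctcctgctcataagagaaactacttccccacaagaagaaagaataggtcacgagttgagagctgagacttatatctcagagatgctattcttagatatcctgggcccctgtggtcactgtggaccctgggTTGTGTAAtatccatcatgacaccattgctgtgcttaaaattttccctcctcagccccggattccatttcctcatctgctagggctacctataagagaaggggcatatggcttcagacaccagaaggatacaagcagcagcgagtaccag
Ccl9: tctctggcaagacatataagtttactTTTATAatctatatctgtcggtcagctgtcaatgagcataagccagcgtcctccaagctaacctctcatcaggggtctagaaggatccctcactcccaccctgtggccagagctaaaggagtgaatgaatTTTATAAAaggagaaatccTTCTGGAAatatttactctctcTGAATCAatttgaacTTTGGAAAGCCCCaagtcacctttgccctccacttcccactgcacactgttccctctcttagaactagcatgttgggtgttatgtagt
The Ccl9 window held 1 kappaB match beginning at base -35, which overlapped a C/EBP match at -38, with 1 AP-1 match at -53, a second C/EBP match at -75 and TATA matches at -92, -94 and -224. The Ccl3 window held 1 C/EBP match at -100 and none of the other letters. Among 32851 mouse promoter windows of this length, 5.56% held the kappaB letters, 7.81% the AP-1 letters, 13.6% the TATA letters and 40.7% the C/EBP letters. The matches describe letters only.

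Unstimulated microglia already expressed the 3 genes, Ccl9 most and Ccl4 least. Ccl9, at 7.40, 7.52, 7.35 and 7.08 in the 4 DMSO libraries (replicates 1 to 4), ranked 416th of 15385 genes by mean FPKM. Ccl3 stood at 5.39, 5.58, 5.50 and 5.34 and ranked 1682nd. Ccl4 stood at 4.60, 4.59, 4.65 and 4.65 and ranked 2936th. The DMSO libraries of the 3 genes did not overlap one another on this scale. Mean levels in FPKM were 42.8 ± 3.30 for Ccl3, 23.6 ± 0.585 for Ccl4 and 162 ± 20.3 for Ccl9 (SD, n = 4).

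Nec-1s alone was the comparison of microglia that did not enter the choice of the genes, and it was tested. Ccl3 with Nec-1s stood at 5.37, 5.27, 5.22 and 5.33, and was lower than DMSO in 4 of 4 pairs by a small amount (difference -0.15, SE 0.059, limma adjusted p = 0.571). Ccl4 stood at 4.47, 4.90, 4.69 and 4.49, on both sides of its DMSO values (0.017, SE 0.074, limma adjusted p = 0.967). Ccl9 stood at 7.53, 7.53, 7.29 and 7.14 (0.035, SE 0.034, limma adjusted p = 0.79). None passed a fold change over 1.5 and an adjusted p under 0.05, and 0% of the 10524 tested genes did, with 892 of them at an unadjusted p under 0.05.

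T/5z raised the level of each gene in each of 4 pairs. Ccl3 reached 8.74, 8.63, 8.64 and 8.13, a mean difference of 3.09 (SE 0.087, 4 pairs) from DMSO. Ccl4 reached 7.66, 7.59, 8.02 and 7.35, 3.03 (SE 0.10) above DMSO. Ccl9 reached 9.41, 9.41, 9.81 and 9.64, 2.23 (SE 0.12) above DMSO. For each gene the lowest T/5z library lay above the highest DMSO library, and Ccl9 remained the most abundant of the 3. All 3 were called higher, where 11.1% of tested genes were; this contrast chose the genes and its p-values are not given.

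T/S/Z raised Ccl3 and Ccl4 far more than Ccl9. Ccl3 rose to 12.24, 12.16, 11.71 and 12.07, 6.59 (SE 0.096) above DMSO. Ccl4 rose to 11.86, 11.61, 10.99 and 11.55, 6.88 (SE 0.13) above DMSO. Ccl9 rose to 9.94, 9.80, 9.89 and 10.10, 2.59 (SE 0.10) above DMSO. The order of levels turned over: Ccl3 was now the 9th most abundant gene of the table, Ccl4 the 19th and Ccl9 the 64th. Again all 3 were called higher, where 12.2% of tested genes were, in a contrast that chose them. In FPKM, Ccl3 took 0.742% of the summed expression after T/S/Z and 0.00903% in DMSO.

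**Figure D1:**
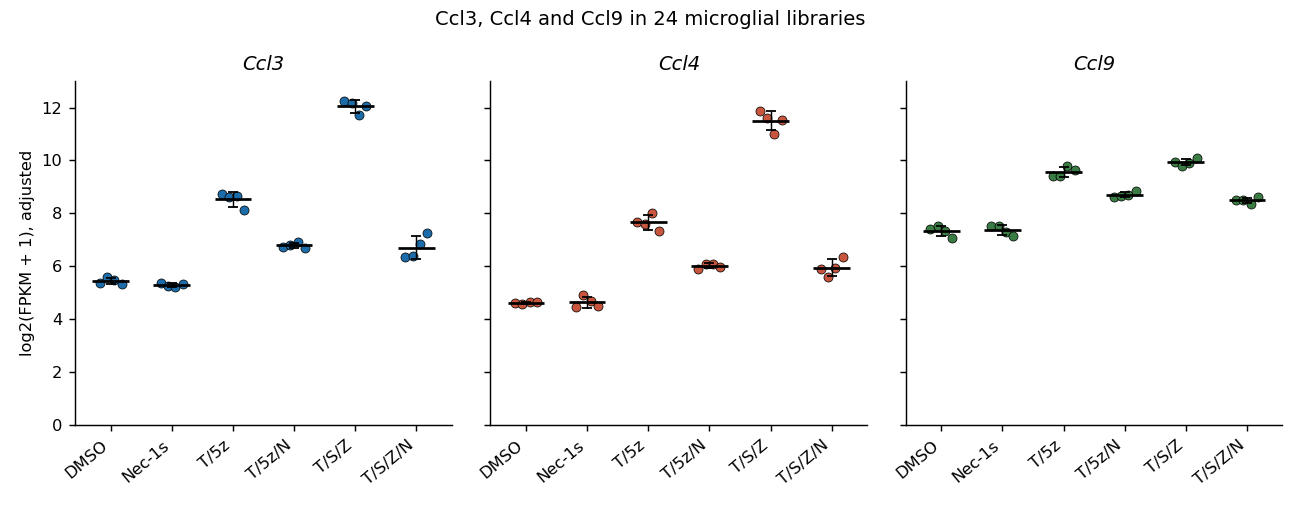
Level of Ccl3, Ccl4 and Ccl9, as log2(FPKM + 1) with the deposited adjustment of replicate means, in the 24 microglial libraries (points, 4 per treatment, in the order of replicates), with the mean (line) and SD (bar). Ccl3 and Ccl4 stand highest after T/S/Z, at 10.99 to 12.24, while Ccl9 stands nearly as high after T/5z as after T/S/Z.

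The stimuli were also set against each other directly. Ccl3 was 3.51 (SE 0.12) higher after T/S/Z than after T/5z and Ccl4 was 3.85 (SE 0.20) higher, each in 4 of 4 pairs and without overlap of the libraries. Ccl9 was 0.37 (SE 0.078) higher, also in 4 of 4 pairs, and its T/S/Z libraries (9.80 to 10.10) overlapped its T/5z libraries (9.41 to 9.81). Of the 3 genes, 2 passed the fold and p threshold here, where 5.42% of tested genes were called higher. These differences are part of what the genes were chosen from and are given as a description.

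The genes therefore differed in proportion to one another. The FPKM of Ccl3 was 1.82 ± 0.166 times that of Ccl4 in DMSO, 1.86 ± 0.283 times after T/5z and 1.46 ± 0.140 times after T/S/Z (SD, n = 4). Ccl3 was 0.267 ± 0.0224 times Ccl9 in DMSO, 0.502 ± 0.129 times after T/5z and 4.38 ± 0.784 times after T/S/Z. The pair Ccl3 and Ccl4 thus kept a ratio between 1.30 and 2.13 in all 24 libraries, while the ratio of Ccl3 to Ccl9 spanned 0.204 to 5.14. Across the 24 libraries Pearson's r was 0.997 between Ccl3 and Ccl4, 0.894 between Ccl3 and Ccl9 and 0.884 between Ccl4 and Ccl9, with treatment, library and the adjustment of replicates shared by the points.

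Nec-1s lowered each gene under each stimulus, and again in every pair. With T/5z, Ccl3 stood at 6.73, 6.81, 6.92 and 6.70 in T/5z/N, 1.75 below T/5z alone (difference -1.75, SE 0.083). Ccl4 stood at 5.90, 6.09, 6.10 and 5.98 (difference -1.64, SE 0.083). Ccl9 stood at 8.62, 8.67, 8.71 and 8.85 (difference -0.85, SE 0.065). For each gene the T/5z/N libraries lay below the T/5z libraries and above the DMSO libraries, without overlap. The 3 genes were called lower with Nec-1s, where 4.52% of tested genes were, and higher in T/5z/N than in DMSO, where 6.16% were. The genes were put forward with these comparisons known, so the calls are a description.

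With T/S/Z, Ccl3 stood at 6.36, 6.38, 6.84 and 7.26 in T/S/Z/N, a difference of -5.34 (SE 0.19) from T/S/Z alone. Ccl4 stood at 5.89, 5.61, 5.93 and 6.36 (difference -5.56, SE 0.16). Ccl9 stood at 8.51, 8.49, 8.37 and 8.60 (difference -1.44, SE 0.062). The genes were called lower, where 6.72% of tested genes were, and stayed above DMSO without overlap, called higher in T/S/Z/N than in DMSO where 6.2% were. These comparisons too were known when the genes were put forward, so the calls are a description. Ccl3 spread most in T/S/Z/N of the 6 treatments, with an SD of 0.43 against 0.098 in T/5z/N. The SD in T/S/Z/N was 0.31 for Ccl4 and 0.098 for Ccl9.

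What remained with Nec-1s was nearly equal under the 2 stimuli. Ccl3 lay 1.34 (SE 0.051) above DMSO in T/5z/N and 1.26 (SE 0.16) in T/S/Z/N. Ccl4 lay 1.40 (SE 0.055) above DMSO in T/5z/N and 1.33 (SE 0.10) in T/S/Z/N. Ccl9 lay 1.38 (SE 0.097) above DMSO in T/5z/N and 1.16 (SE 0.096) in T/S/Z/N. The direct difference between T/S/Z/N and T/5z/N was -0.078 (SE 0.14) for Ccl3 and -0.072 (SE 0.11) for Ccl4, each negative in 3 of 4 pairs, and -0.22 (SE 0.047) for Ccl9, negative in 4 of 4 pairs. None of the 3 was called in that comparison, where 3.38% of tested genes were. The fall with Nec-1s exceeded that under T/5z in every pair, with a difference between the effects of -3.96 to -3.14 for Ccl3, -4.50 to -3.15 for Ccl4 and -0.70 to -0.42 for Ccl9.

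As a share of the log2 rise over DMSO, Nec-1s removed 56.5% ± 4.25 of the Ccl3 rise, 53.8% ± 3.86 of the Ccl4 rise and 38.5% ± 5.77 of the Ccl9 rise after T/5z (SD, n = 4). After T/S/Z it removed 80.9% ± 7.47 for Ccl3, 80.7% ± 4.32 for Ccl4 and 55.7% ± 4.51 for Ccl9. The pairs of Ccl9 lay below those of Ccl3 and of Ccl4 under both stimuli. On the FPKM scale the shares after T/S/Z were 98.4% for Ccl3, 98.6% for Ccl4 and 75.8% for Ccl9, and after T/5z 79.3%, 76.9% and 56.7% in the same order.

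**Figure D2:**
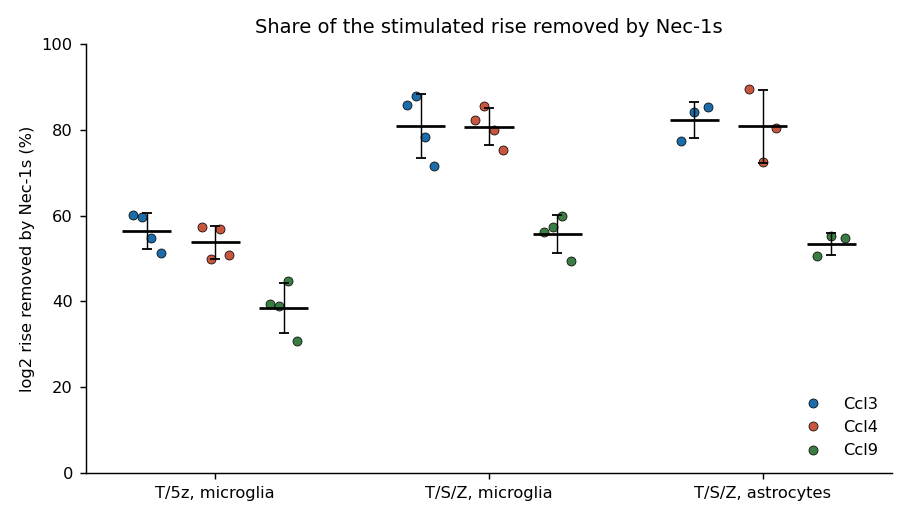
Share of the log2 rise over DMSO that Nec-1s removed, in percent, for each pair of replicates (points; 4 in microglia, 3 in astrocytes), with the mean (line) and SD (bar). Ccl9 stands lowest in each of the 3 settings, at means of 38.5%, 55.7% and 53.4%.

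The sum of 12 astrocyte markers in the microglial table rose with each stimulus and was lower with Nec-1s added, as the chemokines were. It was 9.73 to 11.9 FPKM in DMSO, 16.1 to 29.2 after T/5z, 11.4 to 11.6 in T/5z/N, 17.5 to 26.9 after T/S/Z and 6.44 to 8.13 in T/S/Z/N. In T/S/Z/N the sum thus lay below DMSO, while the chemokines stayed above DMSO. Of the 12, 5 were too low to be tested and 4 (Aldoc, Aqp4, Gja1 and Slc1a3) passed the filter on low values only with stimulated libraries counted, not on those of DMSO and Nec-1s. Of the 7 tested, 5 rose with each stimulus, a count that the filter favours, where T/5z raised 11.1% of tested genes and T/S/Z raised 12.2%. Of the 3 that passed on DMSO and Nec-1s libraries, 2 rose. Among the 5 were Gfap (an intermediate filament protein of astrocytes, limma adjusted p = 5.49e-05 with T/S/Z) and Aqp4 (a water channel of astrocytes, adjusted p = 8.64e-05). The astrocyte table itself, which was normalized separately, held Ccl3 at 19.1 FPKM after T/S/Z, where the microglial table held 4266 FPKM. Whether astrocyte transcripts in the microglial libraries had a part in the chemokine result was not tested. In bulk RNA, fewer cells of one type and less RNA per cell cannot be told apart.

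The other CC chemokine genes were taken as a list of 22, of which 12 had a row in the microglial table and 10 were tested. Of these, 6 passed the filter on DMSO and Nec-1s libraries, while Ccl2, Ccl7, Ccl12 and Ccl20 passed only with stimulated libraries counted, where they were high, so that counts over the list, of genes raised by a stimulus or lowered by Nec-1s, are favoured by the filter and are no support for a change of the list. After T/5z, 5 rose, where 11.1% of tested genes did, and 1 fell, where 13.3% did. The largest were Ccl22, which attracts Ccr4-bearing T cells (5.21, SE 0.23, limma adjusted p = 3.32e-06), the monocyte attractant Ccl2 (4.72, SE 0.33, adjusted p = 2.56e-05), its relative Ccl7 (3.56, SE 0.49, adjusted p = 0.000627) and the Ccr6 ligand Ccl20 (2.29, SE 0.40, adjusted p = 0.002). Ccl12 also rose, and Ccl8 fell.

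With T/S/Z, 5 of the 10 rose and 0 fell, where 12.2% of tested genes rose and 17.5% fell. With libraries centred on their median these shares were 14.9% and 13.4%, so that more genes rose than fell. Ccl2 differed by 5.23 (SE 0.20, limma adjusted p = 5.35e-07), Ccl7 by 4.89 (SE 0.14, adjusted p = 1.85e-07), Ccl22 by 3.00 (SE 0.25, adjusted p = 2.55e-05) and Ccl12, a monocyte attractant close to Ccl2, by 2.26 (SE 0.16, adjusted p = 1.24e-05). The fifth was Ccl20. On the log2(FPKM + 1) scale, which understates genes as low in DMSO as Ccl7 (mean 0.185 FPKM), Ccl3 and Ccl4 had the largest differences of the 13 CC chemokine genes tested after T/S/Z, a contrast that chose them. Mean FPKM went from 0.185 to 37.1 for Ccl7, from 23.6 to 2971 for Ccl4 and from 42.8 to 4266 for Ccl3. In these means the fold of Ccl7, from a DMSO level near the floor, was the larger. Ccl22, Ccl2 and Ccl7 stood above Ccl3 and Ccl4 after T/5z.

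**Figure D3:**
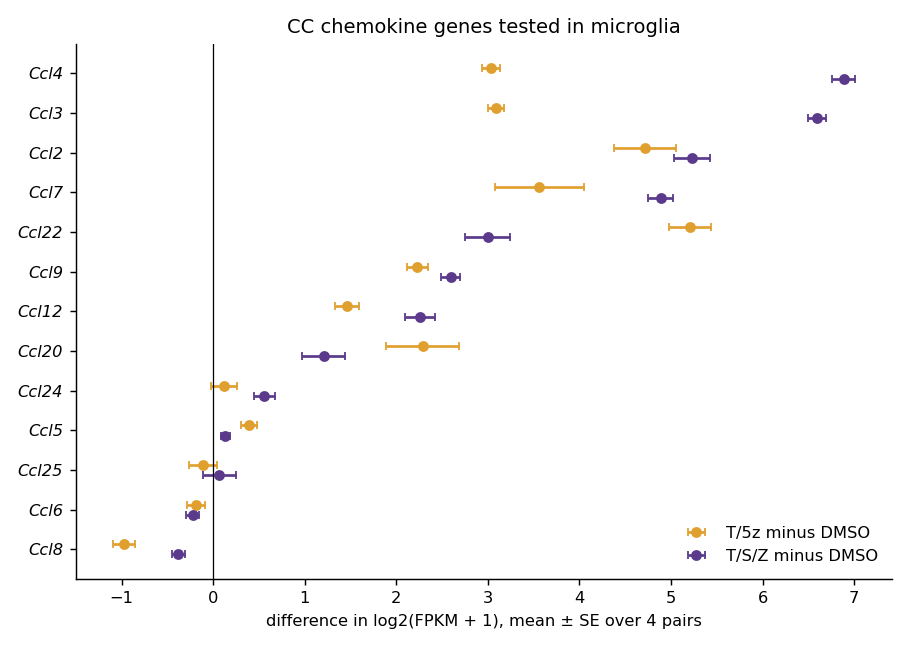
Difference from DMSO in log2(FPKM + 1) for the 13 CC chemokine genes tested in microglia, under each stimulus (points, with the SE over 4 pairs). Ccl3 and Ccl4 lie near 3 after T/5z and beyond 6.5 after T/S/Z, while Ccl22 lies at 5.21 with T/5z but at 3.00 with T/S/Z.

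Set directly against T/5z, T/S/Z gave 2 of the 10 other chemokines a higher level, where 5.42% of tested genes were higher, and 2 a lower one, where 4.42% were lower. Ccl22 was 2.21 lower after T/S/Z (difference -2.21, SE 0.066, limma adjusted p = 3.63e-06), the opposite order to Ccl3 and Ccl4. Ccl20 was lower (-1.08, SE 0.31, adjusted p = 0.0273, in 3 of 4 pairs), a call lost without replicate 1, 2 or 3, at -1.09 to -0.74, and with no filter. Ccl12 (0.79, adjusted p = 0.000506) and Ccl8 (0.59, adjusted p = 0.00874) were higher, the Ccl8 call being lost without replicate 2 or 3, at 0.45 and 0.57. Without replicate 3 the list held 2 calls.

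Nec-1s with T/5z lowered 5 of the 10, where 4.52% of tested genes fell, and raised 1, where 2.64% rose. Ccl2 differed by -2.24 (SE 0.094, limma adjusted p = 1.84e-06), Ccl20 by -1.94 (SE 0.30, adjusted p = 0.00107), Ccl7 by -1.64 (SE 0.098, adjusted p = 9.23e-06) and Ccl22 by -1.49 (SE 0.047, adjusted p = 5.84e-07). Ccl12 was the fifth to fall, so that of the 6 genes that passed the filter on DMSO and Nec-1s libraries 1, Ccl22, fell. In addition Ccl8 rose, a call that was lost without replicate 2, at 0.38, without replicate 3, at 0.72, with quantile normalization, at 0.64, or with no filter. Nec-1s with T/S/Z lowered 4 and raised 0, where 6.72% fell and 5.35% rose, or 8.19% and 3.34% with libraries centred on their median. All 4 had passed the filter only with stimulated libraries counted. These were Ccl7 (-3.50, SE 0.36, adjusted p = 0.00017), Ccl2 (-3.34, SE 0.38, adjusted p = 0.000262), Ccl12 (-1.42, SE 0.17, adjusted p = 0.00035) and Ccl20 (-1.01, SE 0.20, adjusted p = 0.00325). Ccl22 stood at a mean of 3.96 after T/S/Z and 4.18 in T/S/Z/N and was not called.

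With Nec-1s present, 3 of the 10 stayed above DMSO under T/5z, where 6.16% of tested genes did, and 4 under T/S/Z, where 6.2% did. Ccl22 was the largest in both, 3.72 (SE 0.22, limma adjusted p = 5.89e-06) in T/5z/N and 3.22 (SE 0.28, adjusted p = 7.15e-05) in T/S/Z/N. Ccl2 lay 2.47 and 1.89 above DMSO and Ccl7 1.92 and 1.38, in the same order of treatments. The fourth in T/S/Z/N was Ccl12 (0.83, adjusted p = 0.00557). Nec-1s alone changed 0 of the 10 by limma, with 1 at an unadjusted p under 0.05. Over all 10524 tested genes, 0 were called and 892 were at such a p.

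Neighbours of the 3 genes on chromosome 11, named for their position, moved less than a fold of 1.5 in the groups given here. Ccl5 (RANTES, a T cell attractant), next to Ccl9 on one side, had a mean of 9.60 in DMSO, 9.74 after T/S/Z and 9.70 in T/S/Z/N. With T/5z its mean was 9.99 (0.39 above DMSO, SE 0.087, limma adjusted p = 0.00639, higher in 4 of 4 pairs). Ccl6, between Ccl9 and Ccl3, had means of 5.71 in DMSO, 5.53 in T/5z, 5.49 in T/S/Z and 5.55 in T/S/Z/N, and the annotation flags it as confounded, a term the files do not define. Wfdc17, the next gene beyond Ccl4, had means of 6.85 in DMSO, 6.99 after T/S/Z and 6.90 in T/S/Z/N. Ccl5 and Ccl6 were not called in any comparison of microglia.

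Ccr1 fell with T/5z and rose with T/S/Z. Of 15 CC chemokine receptor genes, 7 had a row in microglia and 3 were tested. Ccr1 stood at 2.32, 2.31, 2.45 and 1.79 in DMSO, at 0.29, 0.09, 0.72 and 0.68 after T/5z and at 2.86, 2.85, 2.78 and 3.30 after T/S/Z. It fell with T/5z (-1.78, SE 0.18, limma adjusted p = 0.00014) and rose with T/S/Z (0.73, SE 0.18, adjusted p = 0.00734), a rise that was no longer called without replicate 4, at 0.46. The direct difference between T/S/Z and T/5z was 2.50 (SE 0.12, limma adjusted p = 1.65e-05), in 4 of 4 pairs and without overlap. Nec-1s lowered Ccr1 under T/S/Z to 1.91, 2.05, 1.40 and 1.36 (-1.27, SE 0.17, adjusted p = 0.000594), and under T/5z its mean was 0.31 and not called different from T/5z alone.

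Ccrl2, an atypical receptor that binds chemerin, rose from a mean of 3.76 in DMSO to 6.57 after T/5z (2.81, SE 0.11, limma adjusted p = 2.07e-06) and 7.86 after T/S/Z (4.10, SE 0.18, adjusted p = 9.41e-07). Nec-1s lowered it under both stimuli, to 5.87 and 5.20. Ccr3, a receptor of eotaxins, rose with T/S/Z (0.69, SE 0.099, adjusted p = 0.000444). In counts, 1 of the 3 receptors rose and 1 fell after T/5z, 3 rose and 0 fell after T/S/Z, and all 3 were higher after T/S/Z than after T/5z. Of all tested genes, 11.1% rose and 13.3% fell with T/5z (12.9% and 11.2% with libraries centred on their median), 12.2% rose and 17.5% fell with T/S/Z, and 5.42% were higher in T/S/Z than in T/5z. The Ccr3 call in the last count was lost without replicate 2, at 0.58. The median difference from DMSO was 0.062 for T/5z, while for T/S/Z it was 0.73, beside -0.058 and -0.085 over all tested genes. With Nec-1s, 1 rose and 1 fell in T/5z/N against DMSO, where 6.16% of tested genes rose and 6.69% fell, and 1 rose and 0 fell in T/S/Z/N, where 6.2% rose and 7.87% fell. The T/S/Z/N count was 2 without replicate 2 or without replicate 3.

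The genes whose pattern over the 24 microglial libraries was most like each member were listed by Pearson's r, without a test. For Ccl3 they were Hcar2 (r = 0.993), a receptor of beta-hydroxybutyrate, Tnf (0.993), Slc25a25 (0.988), a mitochondrial carrier, Insig1 (0.987), which holds sterol regulators in the endoplasmic reticulum, and Gdf15 (0.983), a stress-induced cytokine. For Ccl4 they were Hcar2 (0.991), Tnf (0.990), Gdf15 (0.988), Insig1 (0.986) and the tubulin Tuba4a (0.985), so 4 of 5 names recurred. For Ccl9 they were Cpeb4 (0.988), an RNA-binding translation factor, the co-chaperone Dnaja2 (0.986), the nucleoporin Nup54 (0.984), the chaperone Hspa5 (0.984) and Arrdc4 (0.982). Hcar2 went from a mean of 1.20 in DMSO to 3.70 in T/5z, reaching 6.11 in T/S/Z, and Tnf from 2.85 to 5.90 and 9.41. Cpeb4 went from 4.26 to 6.11 and 6.49, so that, as for Ccl9, most of its rise was reached with T/5z. The annotation flags Slc25a25, Tuba4a and Nup54 as confounded.

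In the astrocyte cultures the 3 genes were near the lower end of the table before stimulation. Ccl3 stood at 0.38, 0.08 and 0.49 in the 3 DMSO libraries and ranked 14478th of 14551 genes. Ccl4 stood at 0.70, 0.10 and 0.62 and Ccl9 at 1.16, 1.61 and 1.17. In units of 1 read or read pair, estimated from the steps of the values, Ccl3 held 1.0 to 6.99 in these libraries, Ccl4 1.0 to 8.95 and Ccl9 81.1 to 139. DMSO values of Ccl3 and Ccl4 thus rested on few reads.

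Nec-1s alone did not enter the choice and was tested, but Ccl3 and Ccl4 stood below a log2 value of 1 in all 6 unstimulated libraries and were tested because T/S/Z and T/S/Z/N carried them over the filter. A difference could hardly be detected at these reads. Ccl3 stood at 0.78, 0.23 and 0.50 with Nec-1s (difference 0.19, SE 0.12, limma adjusted p = 0.887), Ccl4 at 0.27, 0.42 and 0.43 (-0.099, SE 0.16, adjusted p = 0.964) and Ccl9 at 0.98, 0.91 and 1.11 (-0.31, SE 0.14, adjusted p = 0.857). None was called, where 0.0144% of the 13842 tested genes were.

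T/S/Z raised all 3 in the astrocyte cultures. Ccl3 reached 4.41, 4.39 and 4.18, 4.01 (SE 0.13, 3 pairs) above DMSO. Ccl4 reached 3.89, 3.79 and 3.53, 3.27 (SE 0.16) above DMSO. Ccl9 reached 2.41, 2.81 and 2.75, 1.35 (SE 0.12) above DMSO. The T/S/Z libraries lay above all DMSO and Nec-1s libraries for each gene, and on 282 to 342 reads for Ccl3, 150 to 201 for Ccl4 and 290 to 391 for Ccl9. As in microglia, Ccl9 rose least and ended below Ccl3 and Ccl4 in FPKM. All 3 were called higher, where 6.39% of tested genes were, in a contrast that chose them. The median over all tested genes was -0.11 here, so a difference relative to it is larger by that amount.

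Nec-1s lowered each gene under T/S/Z in 3 of 3 pairs. In T/S/Z/N, Ccl3 stood at 1.29, 0.77 and 1.04 (difference from T/S/Z -3.29, SE 0.13), Ccl4 at 1.03, 1.11 and 1.20 (-2.63, SE 0.12) and Ccl9 at 1.78, 2.15 and 1.88 (-0.72, SE 0.10). The groups did not overlap, and the 3 were called lower, where 1.59% of tested genes were. The calls of the 3 genes in T/S/Z/N are a description, as the genes were put forward with these comparisons known. The number of genes called in either direction, 429, was 274 without replicate 2 and 761 without replicate 3. The 3 genes remained above DMSO by 0.71 (SE 0.11) for Ccl3, 0.64 (SE 0.15) for Ccl4 and 0.63 (SE 0.094) for Ccl9, called higher where 4.36% were and 4.72% were lower, or 4.96% and 3.42% with quantile normalization. Without replicate 2 the calls in this last comparison of Ccl3 (0.73) and Ccl4 (0.45) were lost, without replicate 3 those of Ccl4 (0.67) and Ccl9 (0.58), and with 5 added before the log all 3 (0.21, 0.19 and 0.27). With 5 added the fall of Ccl9 with Nec-1s was not called either (-0.40). With each gene's own variance in place of limma's moderated one, none of the 3 was called in any of the 3 comparisons of stimulated astrocytes. Nec-1s removed 82.2% ± 4.22 of the log2 rise of Ccl3, 80.8% ± 8.49 of that of Ccl4 and 53.4% ± 2.56 of that of Ccl9 (SD, n = 3). The shares in microglia after the same stimulus were 80.9%, 80.7% and 55.7%. The astrocyte shares of the log2 rise depend on the 1 added before the log, as the DMSO means were 0.255, 0.411 and 1.51 FPKM. On the FPKM scale the astrocyte shares were 95.7%, 93.6% and 64.7%, against 98.4%, 98.6% and 75.8% in microglia, and no pair of either table overlapped the other for any of the 3 genes.

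**Figure D4:**
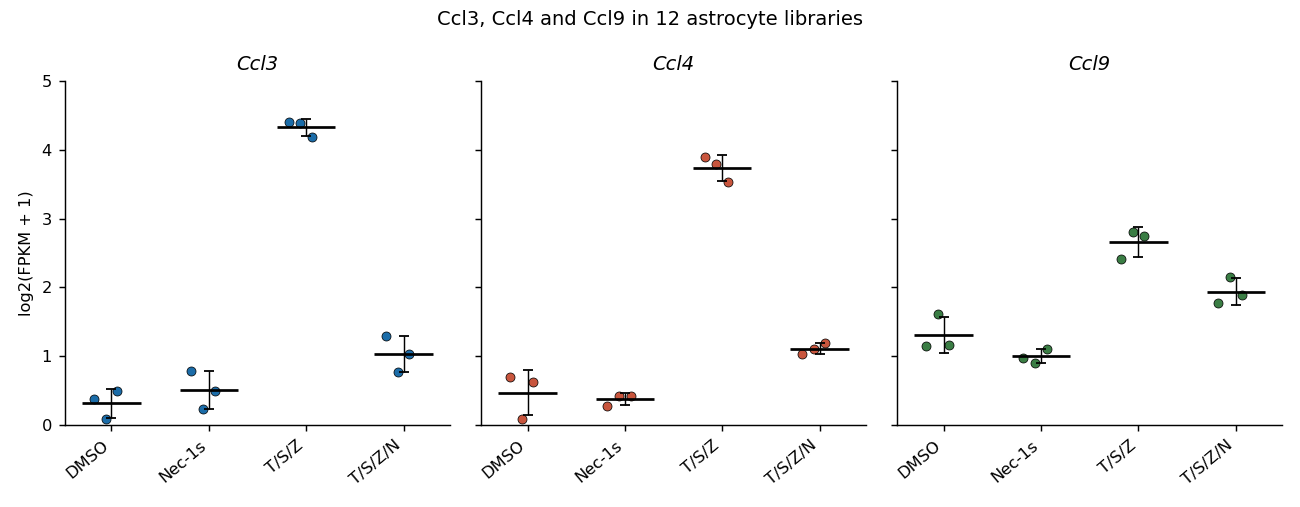
Level of Ccl3, Ccl4 and Ccl9 as log2(FPKM + 1) in the 12 astrocyte libraries (points, 3 per treatment, in the order of replicates), with the mean (line) and SD (bar). The T/S/Z libraries stand apart from the rest for each gene, at 4.18 to 4.41 for Ccl3, and the axis ends at 5, against 13 in the plot of microglia.

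The astrocyte cultures held transcripts of microglia, and the levels of the 3 genes were set beside them. After T/S/Z, the astrocyte mean in FPKM was 0.448% of the microglial mean for Ccl3 (19.1 of 4266 FPKM), 0.418% for Ccl4 (12.4 of 2971) and 0.548% for Ccl9 (5.36 of 979). For the 21 microglial markers with a row in both tables the same share had a median of 0.471% (quartiles 0.429% and 1.31%) and ran from 0.177% for Trem2, a lipid receptor of microglia, to 18.7% for the purinergic receptor P2ry12. The tyrosine kinase receptor Csf1r stood at 0.429%, the fractalkine receptor Cx3cr1 at 0.471% and the signalling adaptor Tyrobp at 0.449%. The chemokines thus lay within the range of the microglial markers.

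In the other treatments the shares of the 3 genes ran from 0.596% to 1.74% in DMSO, 0.604% to 1.24% with Nec-1s and 0.793% to 1.89% in T/S/Z/N. The medians of the markers were 0.821%, 0.863% and 0.829%. The DMSO share of Ccl3 rested on few reads and ran from 0.423% to 0.851% as single replicates were left out. The ratio of Ccl3 to Ccl4 in FPKM after T/S/Z was 1.54 ± 0.0788 in astrocytes (n = 3) and 1.46 ± 0.140 in microglia (n = 4), and that of Ccl3 to Ccl9 was 3.66 ± 0.899 and 4.38 ± 0.784. The tables were normalized separately, so these shares carry that scale.

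**Figure D5:**
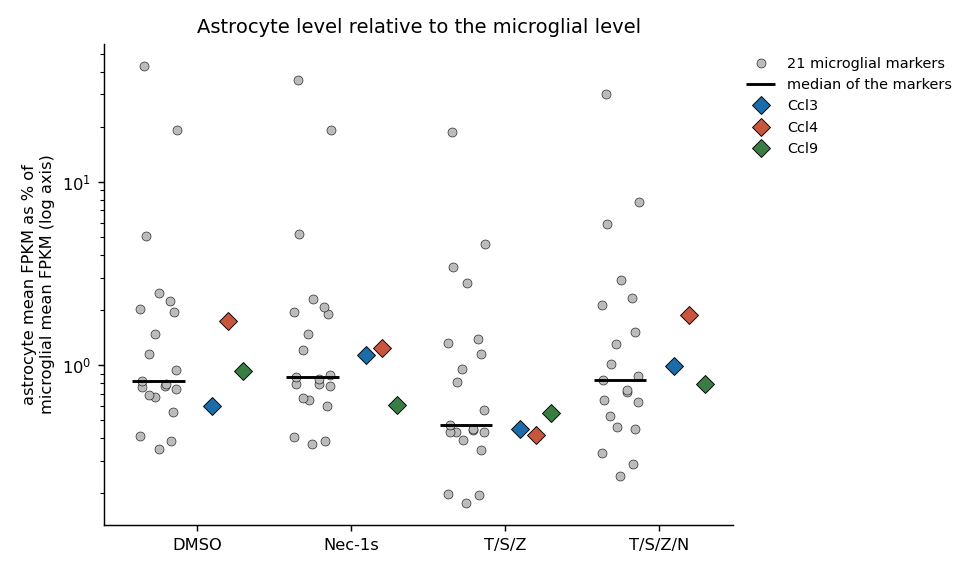
Mean FPKM in astrocytes as a percent of the mean FPKM in microglia (log axis) for 21 microglial markers (grey circles, median as a line) and for Ccl3, Ccl4 and Ccl9 (diamonds), by treatment. In T/S/Z the chemokines stand at 0.418% to 0.548%, beside a marker median of 0.471%.

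The summed microglial markers of the astrocyte cultures did not rise with the chemokines. The summed FPKM of the 21 markers was 174 to 188 in DMSO, 183 to 189 with Nec-1s, 112 to 124 after T/S/Z and 157 to 164 in T/S/Z/N. Of the 20 markers tested, 0 rose and 10 fell after T/S/Z, where 8.99% of tested genes fell. Of tested genes 6.39% rose, and with quantile normalization the shares were 7.22% higher and 6.62% lower. Among the 10 were Tmem119 (a membrane protein used to mark microglia, -1.80, limma adjusted p = 3.33e-05), Cx3cr1 (-1.08, adjusted p = 0.000467) and Csf1r (-0.61, adjusted p = 0.00257). In DMSO Tmem119 had the highest astrocyte share of the 21 markers, at 43.0% of its microglial mean, where the marker median was 0.821%. Cd68, a lysosomal protein of phagocytes, went the other way without reaching the fold threshold, from a mean of 3.33 in DMSO to 3.73 after T/S/Z (0.40, SE 0.092, limma adjusted p = 0.0127) and 3.22 in T/S/Z/N. The median of the 20 was -0.59, beside -0.11 over all tested genes. With Nec-1s added, 4 of the 20 rose and 0 fell, where 1.51% of tested genes rose. The 5 markers of endothelial cells and fibroblasts with a row moved against the chemokines. They summed to 290 to 319 FPKM in DMSO, 68.7 to 76.6 after T/S/Z and 262 to 271 in T/S/Z/N, and their part in the result was not tested. Whether the chemokine reads came from the astrocytes or from microglia left in the cultures was not tested.

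Some other CC chemokines reached high levels in the astrocyte cultures. Of the list of 22, 9 had a row and 8 were tested. Over all tested genes 6.39% rose and 8.99% fell with T/S/Z, or 999 and 917 genes with quantile normalization. Of the 8, 0 fell and 4 rose: Ccl2 (7.86, SE 0.17, limma adjusted p = 3.13e-07), Ccl7 (7.32, SE 0.13, adjusted p = 1.73e-07), Ccl5 (6.26, SE 0.069, adjusted p = 4.91e-08) and Ccl20 (4.06, SE 0.14, adjusted p = 2.07e-06), which passed the filter only with stimulated libraries counted. Their astrocyte means were not a small share of the microglial ones. Ccl2 reached 3590 FPKM in astrocytes and 74.1 FPKM in microglia, Ccl7 692 and 37.1 FPKM, and Ccl5 481 and 853 FPKM.

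Nec-1s under T/S/Z lowered 2 of the 8 in astrocytes, where 1.59% of tested genes fell, and raised 2, where 1.51% rose. Ccl20 differed by -1.37 (SE 0.13, limma adjusted p = 0.0018) and Ccl5 by -1.06 (SE 0.10, adjusted p = 0.00174). The monocyte attractants Ccl12 (1.52, SE 0.12, adjusted p = 0.000752) and Ccl8 (1.11, SE 0.11, adjusted p = 0.00194) rose. In T/S/Z/N 6 of 8 were above DMSO, where 4.36% of tested genes were, led by Ccl2 (7.32, SE 0.19, adjusted p = 8.69e-06), Ccl7 (6.86, SE 0.12, adjusted p = 2.98e-06), Ccl5 (5.20, SE 0.10, adjusted p = 3.09e-06) and Ccl20 (2.69, SE 0.11, adjusted p = 4.25e-05). The other two were Ccl12 and Ccl8. Nec-1s alone changed 0 of the 8 by limma, with 3 at an unadjusted p under 0.05. Over all 13842 tested genes, 2 were called and 790 were at such a p.

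Ccr1 was low in the astrocyte cultures. It stood at 1.05, 0.90 and 1.12 in DMSO and 0.50, 0.70 and 0.59 after T/S/Z (-0.42, SE 0.12, limma adjusted p = 0.0294). The difference did not reach a fold change of 1.5, and the groups did not overlap. In T/S/Z/N Ccr1 stood at 1.28, 1.16 and 1.18 (0.61 above T/S/Z, SE 0.11, adjusted p = 0.0208), a call lost without replicate 1 (0.52), with quantile normalization (0.57), with 5 added before the log (0.19) and with ordinary per-gene variance. Of 4 receptor genes tested, 2 rose after T/S/Z, where 6.39% of tested genes did: Ccrl2 (1.45, SE 0.15, adjusted p = 0.000371), which also passed the filter only with stimulated libraries counted, and the atypical receptor Ackr3 (1.09, SE 0.084, adjusted p = 9.88e-05).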

How the data were processed

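RNA expression was measured in 24 microglial and 12 astrocyte libraries. The authors processed the reads with OmicSoft Array Studio. The deposited values are log2(FPKM + 1), scaled to a common 75th percentile; aligner and build are not given in the sources used here. In the microglial table each gene's mean over the 6 treatments in replicates 1 to 3 equalled that in replicate 4 (largest difference 8.33e-05, against 5.16 in astrocytes), an adjustment the methods do not describe, which leaves some values negative and makes the replicates' spread that of adjusted values. The deposited exon lengths and coordinates were used for identity. Starts equalled those of GENCODE M21 (GRCm38) for 84.6% of microglial and 100% of astrocyte genes, and those of the 3 members in both tables. Depth was estimated from the steps of low values, of which 72.2% to 80.3% in astrocytes lay within 0.1 of a whole number. Whole reads were not recovered, so count tests were not used.

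Genes with a log2 value of at least 1 in at least 4 (microglia) or 3 (astrocytes) libraries were tested, 10524 and 13842 genes. Groups were compared 2-sided with limma 3.58.1 in R 4.3.3 (lmFit, eBayes with trend) on the libraries of the 2 groups, blocked by replicate number, as the study's test was paired. Called means a fold change over 1.5 and a Benjamini-Hochberg adjusted p under 0.05 over all tested genes. Fold changes on the log2(FPKM + 1) scale understate the change of low genes. Deviations of same-numbered libraries from their group means correlated at -0.14 to 0.41 in astrocytes, which does not show pairing, and the check is void in microglia, where replicate means were made equal. The members and gene lists were chosen with earlier results of these data known. Named were the members, the called CC chemokines (values for up to 4 per comparison), Ccr1, other receptors and RNA-binding regulators where called, and the 5 genes most correlated with each member; locus neighbours were named for position, and marker genes as examples after their values were seen. A receptor gene is not reported here. Scripts were tested on simulated data. Levels of markers of oligodendrocytes, endothelial cells and fibroblasts, border macrophages and neutrophils are given with the other observations.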

Additional observations from a re-analysis of the deposited data

Results flagged for a closer look

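Among the 30 groups of 4 microglial libraries examined (6 treatments of Ccl3, Ccl4, Ccl9, Ccr1 and Ccrl2), 1 had a library far from the rest, where chance sets apart about 1 in 20. Ccr1 after T/S/Z stood at 3.30 in replicate 4 and at 2.78, 2.85 and 2.86 in the other libraries, so that its gap was 0.851 of the range, above the critical value of 0.829. Ccr1 differed between the stimuli, falling with T/5z (-1.78) and rising with T/S/Z (0.73), with a direct difference of 2.50 (limma adjusted p = 1.65e-05). Under 10 alternatives that difference ran from 1.13 to 2.65 and stayed called, while the rise over DMSO was no longer called without replicate 4 (0.46), with 5 added before the log (0.43) or with ordinary per-gene variance.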

How the results depend on the processing

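Over 267 recomputed differences of Ccl3, Ccl4 and Ccl9, 252 moved by less than the spread between pairs or kept their side of the threshold, 13 moved further and 2 changed sign. Without the replicate block the differences were the same by construction, as the groups are balanced over replicates, at 6.59 for Ccl3 after T/S/Z in microglia. They count among the 252 and are no check of the values. No call on the lists' genes was lost without the block. With 5 added before the log, the T/S/Z difference in astrocytes was 2.20 for Ccl3, 1.68 for Ccl4 and 0.67 for Ccl9, that of T/S/Z/N from T/S/Z was -1.99, -1.49 and -0.40, and that of T/S/Z/N from DMSO was 0.21, 0.19 and 0.27; Ccl4 in microglial T/5z/N lay 1.27 above DMSO. The calls of all 3 in astrocyte T/S/Z/N against DMSO, and of Ccl9 against T/S/Z, were then lost. A larger pseudocount shrinks low values by construction. Quantile normalization gave Ccl9 2.19 for T/S/Z, -1.17 for T/S/Z/N from T/S/Z in microglia and 0.73 for T/S/Z/N from DMSO in astrocytes; the cause was not tested. Leaving out replicates moved the Nec-1s difference of Ccl4 across 0, from -0.081 (without replicate 2) to 0.078 in microglia and from -0.31 to 0.065 (without replicate 1) in astrocytes, and neither was called. With microglial replicate 4 alone, the astrocyte share was 0.715% for Ccl9 with Nec-1s and 1.43% for Ccl4 in T/S/Z/N.

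Counts of other CC chemokines fell, where fewer genes were tested (mean log2 of at least 3), to 2 for T/5z, T/S/Z, T/5z/N against T/5z and T/S/Z/N against DMSO and to 1 for T/S/Z/N against T/S/Z in microglia, and in astrocytes to 1 for T/S/Z/N against T/S/Z and 3 against DMSO; the members in astrocytes were then not tested. With ordinary per-gene variance they were 3 for T/5z/N against T/5z and 1 for T/5z/N and for T/S/Z/N against DMSO in microglia, and 0 and 0 for T/S/Z/N against T/S/Z and DMSO in astrocytes, where all genes called fell from 2130 to 281 for T/S/Z and from 429 to 3 for T/S/Z/N against T/S/Z, and no member was called. With 5 added, T/S/Z/N against DMSO gave 2 in microglia. Leaving out a replicate kept these counts within 1.5 times, but gave 2 to 4 for T/S/Z against T/5z and 0 to 2 for T/S/Z/N against T/5z/N. Over all genes, 5 added before the log gave 1633 calls for T/S/Z in microglia, against 3118, and Nec-1s in astrocytes gave 0 to 16 calls. For 90 called pairs of list gene and comparison, 917 values were recomputed, of which 81 lost the call and 0 changed sign, 39 of them under ordinary variance and 23 with 5 added. Depth limits Ccl3 and Ccl4 in unstimulated astrocytes.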

Other observations

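Of 7 genes for proteins that bind and regulate chemokine and cytokine messages, Zfp36 (tristetraprolin, which promotes decay of AU-rich messages) rose most in microglia after T/S/Z, from a mean of 6.02 in DMSO to 8.48 (2.46, SE 0.074, limma adjusted p = 2.14e-07). It rose less after T/5z (0.70, SE 0.056, limma adjusted p = 4.5e-05), a call lost with quantile normalization, at 0.55. Zfp36 was higher after T/S/Z than after T/5z (1.76, SE 0.076, adjusted p = 1.11e-05), in the same order as Ccl3 and Ccl4. Nec-1s lowered it under T/S/Z to a mean of 6.40 (-2.08, SE 0.060, adjusted p = 7.52e-07). Zc3h12a (the endonuclease Regnase-1) rose with T/S/Z (1.57, SE 0.071, limma adjusted p = 1.27e-06) and fell under DMSO levels in T/5z/N (-1.21, SE 0.082, adjusted p = 1.14e-05) and in T/S/Z/N (-0.64, SE 0.099, adjusted p = 0.00141). With 5 added before the log, both calls under DMSO were lost, at -0.54 and -0.31. The T/S/Z/N call was also lost without replicate 1, at -0.56, and with quantile normalization, at -0.51. Zfp36l2, a relative of Zfp36, fell after T/5z (-1.79, SE 0.12, adjusted p = 1.74e-05) and after T/S/Z (-2.36, SE 0.10, adjusted p = 9.1e-07). Elavl1 (HuR, which stabilises messages) rose with T/S/Z (0.77, SE 0.064, adjusted p = 2.55e-05). After T/S/Z, 3 of the 7 rose and 1 fell, where 12.2% and 17.5% of tested genes did, and after T/5z 1 rose and 1 fell, where 11.1% and 13.3% did. The annotation flags Zfp36 and Elavl1 as confounded.

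In astrocytes after T/S/Z, Zc3h12a (2.43, SE 0.13, limma adjusted p = 1.97e-05), Zfp36 (1.54, SE 0.092, adjusted p = 3.1e-05) and Zfp36l1 (0.69, SE 0.092, adjusted p = 0.00133) rose, the last a call lost without replicate 1, at 0.62. These were 3 of the 7, where 6.39% of tested genes rose. Nec-1s under T/S/Z lowered Zc3h12a (-1.13, SE 0.13, adjusted p = 0.00425), where 1.59% of tested genes fell. Zfp36 had a mean of 4.49 after T/S/Z and 4.34 in T/S/Z/N and was not called different. Nec-1s alone changed 0 of the 7 by limma in either table, with 2 in microglia and 0 in astrocytes at an unadjusted p under 0.05. Over all tested genes, 892 of 10524 in microglia and 790 of 13842 in astrocytes were at such a p, and 0 and 2 were called.

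Markers of other cells were present. In astrocyte libraries, the 8 genes of the oligodendrocyte lineage summed to 101 to 118 FPKM in DMSO, 61.1 to 87.7 after T/S/Z and 68.9 to 72.5 in T/S/Z/N. In microglial libraries they summed to 26.3 to 38.6 FPKM over all treatments. There 6 genes of endothelial cells and fibroblasts summed to 9.44 to 12.3 FPKM in DMSO, 9.27 to 13.4 after T/5z, 6.90 to 7.74 in T/5z/N, 5.20 to 6.56 after T/S/Z and 4.37 to 5.72 in T/S/Z/N, and their part in the chemokine results was not tested. The 2 genes of border macrophages with a row in microglia summed to 114 to 177 FPKM, and the 2 neutrophil genes reached at most 16.8 FPKM.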
